A study of Homo sapiens with 24 samples.

Results

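The 81 genes that encode the proteins of the cytosolic ribosome were followed in diffuse midline glioma (DMG) cells given an inhibitor of the arginine methyltransferase PRMT5 or vehicle. The genes were taken by name. Every row whose identifier maps to RPL or RPS followed by a number, alone or with a single letter A, X or L, was kept together with RPLP0, RPLP1, RPLP2 and RPSA, and no pseudogene was kept. Of 58676 rows in the table, 81 met this rule, 49 for the large (60S) subunit and 32 for the small (40S) subunit.

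The cells were HSJD-DIPG-007, an established paediatric DMG line grown as spheroids, with the labelled genotype H3F3A K27M, ACVR1 R206H and PIK3CA MIS in every library. They received vehicle or LLY-283, a compound that occupies the S-adenosylmethionine pocket of PRMT5, at its partly growth-inhibiting GI40 dose. Poly(A) RNA was sequenced at days 0, 1, 2, 3, 5, 7 and 10, giving 12 vehicle and 12 LLY-283 libraries. Within an arm, days 0 and 5 were covered by 3 libraries each, day 7 by 2 and every other day by 1. The libraries of a group are technical repeats of a single line by the study's account, so p-values measure the spread between these libraries and not between independent cultures. The labels give a single dose, whereas the methods describe a second one after 5 days.

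A ribosome is assembled from ribosomal RNA and close to equal numbers of each ribosomal protein, and the mRNAs of these proteins are among the most abundant in growing cells. Most of them begin with a 5′ terminal oligopyrimidine (TOP) tract, a cytidine at the first base followed by an unbroken run of pyrimidines, through which the kinase mTORC1 and the RNA-binding protein LARP1 set their translation and stability together. Ribosomal proteins that are not built into ribosomes also have other roles, the best known being the binding of RPL5 and RPL11 to MDM2, the ubiquitin ligase of p53.

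The bases around annotated start sites are shown for 11 members, because the tract that defines TOP mRNAs lies there. The 11 include members with large and with small changes at day 5. Each window holds 15 bases before and 15 bases from the start, 5′ to 3′ on the coding strand (RefSeq, GRCh38.p14), and capitals mark a tract of C and at least 4 further pyrimidines that begins exactly at the start.
RPLP2: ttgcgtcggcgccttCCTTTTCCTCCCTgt
RPS12: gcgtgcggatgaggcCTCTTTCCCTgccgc
RPL35: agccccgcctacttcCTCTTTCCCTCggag
RPS21: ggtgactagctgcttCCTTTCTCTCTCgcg
RPS27: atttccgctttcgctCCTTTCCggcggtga
RPS16: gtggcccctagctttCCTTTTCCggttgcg
RPS6: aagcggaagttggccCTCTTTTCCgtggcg
RPLP0: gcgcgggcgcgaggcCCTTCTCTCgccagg
RPL3: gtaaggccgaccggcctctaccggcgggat
RPS26: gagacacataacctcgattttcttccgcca
RPS27L: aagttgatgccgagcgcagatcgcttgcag
The windows lie at chr11:809952-809981 on the plus strand (RPLP2), chr6:132814554-132814583 plus (RPS12), chr9:124861943-124861972 minus (RPL35), chr20:62387088-62387117 plus (RPS21), chr1:153990747-153990776 plus (RPS27), chr19:39435935-39435964 minus (RPS16), chr9:19380222-19380251 minus (RPS6), chr12:120201097-120201126 minus (RPLP0), chr22:39319609-39319638 minus (RPL3), chr12:56041903-56041932 plus (RPS26) and chr15:63157463-63157492 minus (RPS27L). In all of them the last 15 bases are the first bases of the annotated transcript, in its 5′ exon. RPLP2 carried the longest of the printed tracts, with 13 bases. RPL3, RPS26 and RPS27L had no such tract at the start used here, although RPL3 and RPS26 had one within 10 bases of it.

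Start sites were found for 64 of the 81 members. A tract stood exactly at an annotated start in 46 of them (71.9%), against 5.14% of 27305 genes in the same table, and within 10 bases on either side in 57 of them (89.1%), against 38.4% of all genes. The search read the coding strand only. No tract was found even within 10 bases for RPL6, RPL10L, RPL17, RPL27, RPS4X, RPS27L and RPS29. A match is a description of the letters, and where transcription began in these cells was not measured.

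Libraries held 13835205 to 23190369 estimated counts, and the 81 genes took 4.05% to 5.02% of them. Defining markers of the glioma lineage were present throughout, with PDGFRA at 79.8 to 212 CPM (estimated counts scaled to a common library size) and OLIG2 at 228 to 366 CPM, whereas SOX10 did not exceed 0.61 CPM and the immune marker PTPRC did not exceed 0.29 CPM. Of 8 fibroblast markers, FN1, COL1A1 and COL1A2 stood at 59.1, 52.7 and 36.1 CPM in vehicle day 5 repeat 3, against at most 2.64, 8.27 and 1.02 CPM in the other vehicle day 5 libraries, and the sum of the list was 353.9 CPM there, 194.5 and 201.9 CPM in those, and 284.2 to 290.7 CPM in LLY-283 at day 5. FN1 also reached 26.7 CPM in LLY-283 day 2 and 29.2 CPM in vehicle day 7 repeat 1, against at most 8.28 CPM in all others. COL3A1 was highest in vehicle day 5 repeat 3, at 9.18 CPM against 0.06 and 0.19 CPM in the other vehicle day 5 libraries. It was at 0 in 4 libraries. DCN was at 3.69 CPM in vehicle day 5 repeat 3, against 0.48 and 0.58 CPM in the other vehicle day 5 libraries. COL1A1, COL1A2 and COL3A1 stood at 32.4, 16.6 and 5.6 CPM in LLY-283 day 2. In vehicle day 7 repeat 1 they stood at 30.4, 16.9 and 5.0 CPM. THY1 was not raised in vehicle day 5 repeat 3, at 140.7 CPM against 142.3 and 148.1 CPM in the other vehicle day 5 libraries. POSTN was at 28.8 CPM in that library, 19.5 and 20.4 CPM in those, and 70.3 to 79.7 CPM in LLY-283 at day 5. LUM, at 23.7 CPM there, was near the 20.5 and 21.7 CPM of those. The summed list was highest in LLY-283 day 10, at 359.3 CPM. The day 7 libraries of repeat 2 stood against their labels. Of 4275 genes that are not ribosomal protein members and that passed the test at day 5, 94.6% had the same sign in the day 7 repeat 1 pair but 21.7% in the repeat 2 pair. Both are therefore called the libraries labelled LLY-283 or vehicle, repeat 2, and day 7 values are given with and without them.

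Apart from 4 tissue-restricted or divergent paralogs, which are given separately, all members were abundant. Their mean level over the 24 libraries, in normalised CPM per kilobase of coding sequence, ran from 345 for RPS26 to 15660 for RPL41, with a median of 971. This scale uses coding bases alone, 75 for RPL41, whose annotated transcript has 676 bases. Without division by length, RPL41 had a mean of 1175 CPM, below the 2108 CPM of RPS2. Within a gene, the highest of the 24 libraries exceeded the lowest by 1.28-fold (RPL10) to 1.71-fold (RPS12), with a median of 1.38-fold over these 77 genes. The paralogs lay below their partners on the same scale per coding length, on which RPS27L, at 476, stood above RPS26. Without division by length, RPS27L and RPS26 were alike, at 120 and 119 CPM. RPS27 stood 5.93-fold above RPS27L, RPL39 20.6-fold above RPL39L, and RPL3, a core 60S protein, 2968-fold above its muscle-restricted copy RPL3L. RPL10L, the testis copy of RPL10, had 15 counts in all 24 libraries together and was tested in no comparison.

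At day 5, with 3 libraries a side, the ribosomal protein mRNAs were slightly lower under LLY-283, and a single member was higher. Of 79 members tested, 28 were lower at an adjusted p under 0.01, where 14.1% of all 16491 genes were, and 1 was higher, where 12% of all genes were. Among all 79, 71 had a negative log2 fold change (47.1% of all genes), and the median was -0.09, a ratio of 0.938, against 0.02 for all genes. In CPM scaled within day 5, the LLY-283 libraries lay entirely below the vehicle libraries for 41 members, where 23.3% of all genes did so. They lay entirely above the vehicle libraries for RPS27L and RPL15, where 23.3% of all genes did so. In the CPM scaled over all 24 libraries, in which single libraries are given here, they lay below for 44 members and above for RPS27L alone, while RPL15 overlapped. The share of all genes was not counted on that scale. The calls at an adjusted p under 0.01 come from the quasi-likelihood test of edgeR, with p-values adjusted over all genes by the Benjamini-Hochberg method. RPL3L and RPL10L did not pass the filter on low counts.

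**Figure D1:**
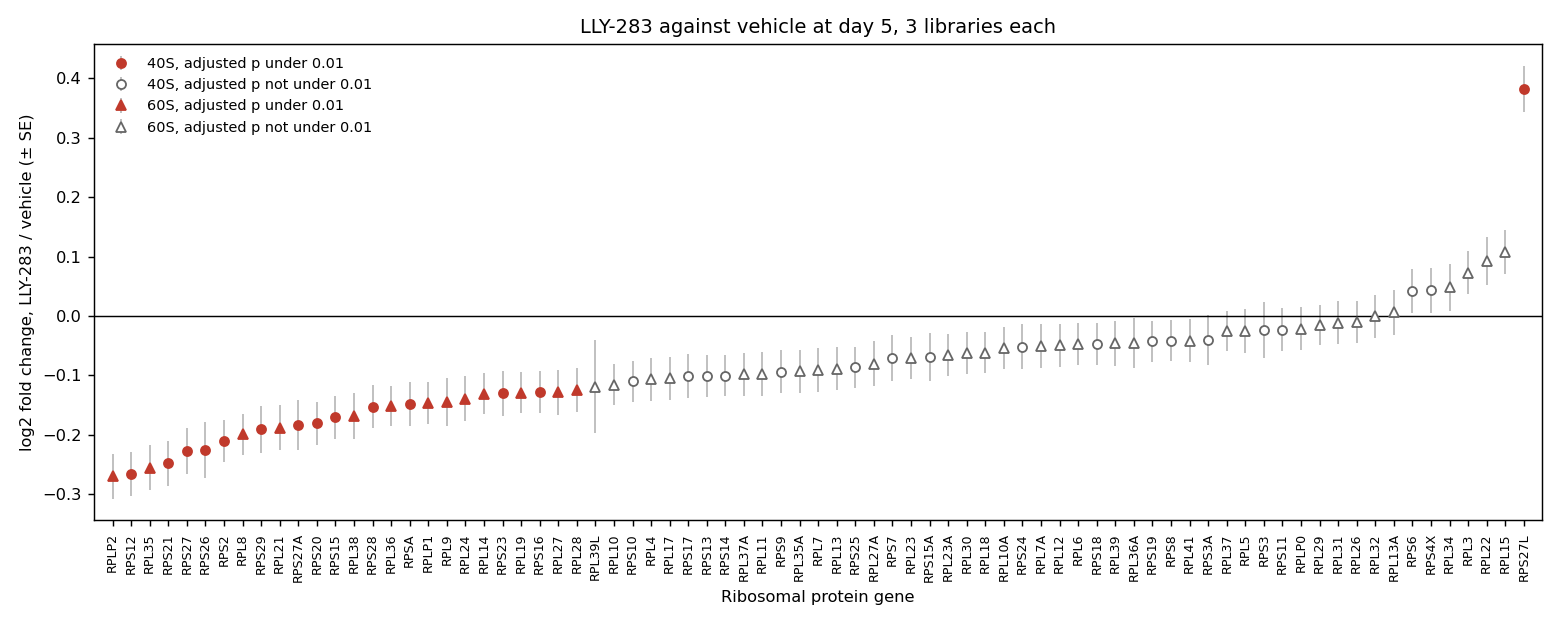
Fold change of 77 of the 79 members tested at day 5, as log2 of LLY-283 over vehicle with its standard error (3 libraries a side), ordered from lowest to highest, with circles for 40S and triangles for 60S genes and filled red symbols for an adjusted p under 0.01. The values form a continuous slope from -0.27 for RPLP2 to 0.11 for RPL15, and RPS27L stands apart at 0.38.

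The count of 28 depended on single libraries, and the members of a library stood high or low together. Relative to the mean of the vehicle day 0 libraries, the median member stood at 0.07, 0.03 and 0.02 (log2) in the 3 vehicle day 5 libraries and at 0.004, -0.09 and -0.11 in the 3 LLY-283 libraries. Leaving out LLY-283 repeat 1 raised the count of lower members to 43, whereas leaving out repeat 2 or 3 of LLY-283 or repeat 1 of vehicle cut it to 14, 13 or 17. Without vehicle repeat 3, the library with raised FN1, COL1A1 and COL1A2, 22 were lower and 1 higher, with a median of -0.11. When the 22 libraries of days 0 to 7 shared an estimate of the spread, 6 members were lower and none higher, with RPS27L at an adjusted p of 0.0389. These 22 include the day 7 libraries of repeat 2. Chi-square per degree of freedom between day 7 repeats was 13.4 in LLY-283 and 11.2 in vehicle, against 1.65 to 3.79 in other groups. The part of the day 7 libraries in the shared fit was not tested. The median of the members stayed between -0.13 and -0.06 under every alternative run. The share of all genes called was not counted under these alternatives.

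The largest decreases belonged to RPLP2, RPS12, RPL35, RPS21, RPS27 and RPS26. RPLP2, an acidic protein of the stalk that recruits elongation factors to the 60S subunit, measured 353, 343 and 378 CPM in vehicle and 306, 286 and 284 CPM in LLY-283 at day 5. No LLY-283 library reached the lowest vehicle library. The log2 fold change was -0.27 ± 0.04 (SE; edgeR adjusted p = 2.29e-06), a ratio of 0.830.

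RPS12, a protein of the head of the 40S subunit, measured 323, 315 and 325 CPM in vehicle and 279, 250 and 259 CPM in LLY-283, again without overlap. Its log2 fold change was -0.27 ± 0.04 (edgeR adjusted p = 1.58e-06). RPL35, which lies beside the exit of the nascent-chain tunnel, measured 337, 314 and 332 CPM in vehicle against 287, 263 and 261 CPM, with a log2 fold change of -0.25 ± 0.04. RPS21 followed with 269, 257 and 255 CPM against 230, 210 and 207 CPM, and a log2 fold change of -0.25 ± 0.04. These genes did not overlap between the arms either.

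RPS26, which sits at the mRNA exit channel, was the least precise of the 6. It measured 120, 121 and 110 CPM in vehicle and 106, 91.0 and 98.0 CPM in LLY-283, a log2 fold change of -0.23 ± 0.05 (edgeR adjusted p = 5.4e-04). The difference between the arms was already visible for this gene in the single libraries of day 3, at 129 CPM in vehicle and 93.6 CPM in LLY-283, but not in those of day 2, at 122 CPM in both.

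The other members called lower at day 5 included RPS2, RPS15, RPS16, RPS20, RPS23, RPS27A, RPS28, RPS29 and RPSA in the 40S subunit, and RPL8, RPL9, RPL14, RPL19, RPL21, RPL24, RPL27, RPL28, RPL36, RPL38 and RPLP1 in the 60S subunit. Their log2 fold changes ran from -0.21 (RPS2) to -0.12. By subunit, 14 of 32 tested 40S genes were lower and 1 higher, with a median of -0.10. In the 60S subunit, 14 of 47 tested genes were lower and none higher, with a median of -0.08. Of all genes, 14.1% were lower and 12% higher. Reads of RPL21 and RPS28 may be shared with processed pseudogenes, whose counts came to 35.8% and 28.0% of those of parent and pseudogenes together, and adding pseudogene counts to the parents left 28 members lower.

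RPS27L was the only member called higher at day 5. Its product differs little from RPS27, is incorporated into the 40S subunit in its place, and its gene is a known target of p53. It measured 111, 106 and 111 CPM in vehicle and 144, 142 and 134 CPM in LLY-283, so every LLY-283 library exceeded every vehicle library. The log2 fold change was 0.38 ± 0.04 (edgeR adjusted p = 1.25e-08), a ratio of 1.30. RPS27 moved the other way, from 747, 677 and 760 CPM in vehicle to 625, 606 and 604 CPM in LLY-283, a log2 fold change of -0.23 ± 0.04 (edgeR adjusted p = 3.28e-05).

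The course of RPS27L over days differed in shape from that of RPS27. It stood at 123 to 134 CPM in the 6 libraries of day 0 and at 83.3 to 100 CPM in the 6 libraries of days 1 to 3, whichever the arm. It was back at 134 to 144 CPM in LLY-283 at day 5, when vehicle stood at 106 to 111 CPM. At day 7 the repeat 1 libraries measured 127 CPM in vehicle and 155 CPM in LLY-283, and the repeat 2 libraries measured 156 CPM in that labelled vehicle and 104 CPM in that labelled LLY-283. At day 10 the single libraries measured 131 and 141 CPM. RPS27 was lower at day 5 than at day 0 in both arms, from 767 to 850 CPM at day 0, and at days 1, 2, 3 and 5 each LLY-283 library lay below each vehicle library.

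**Figure D2:**
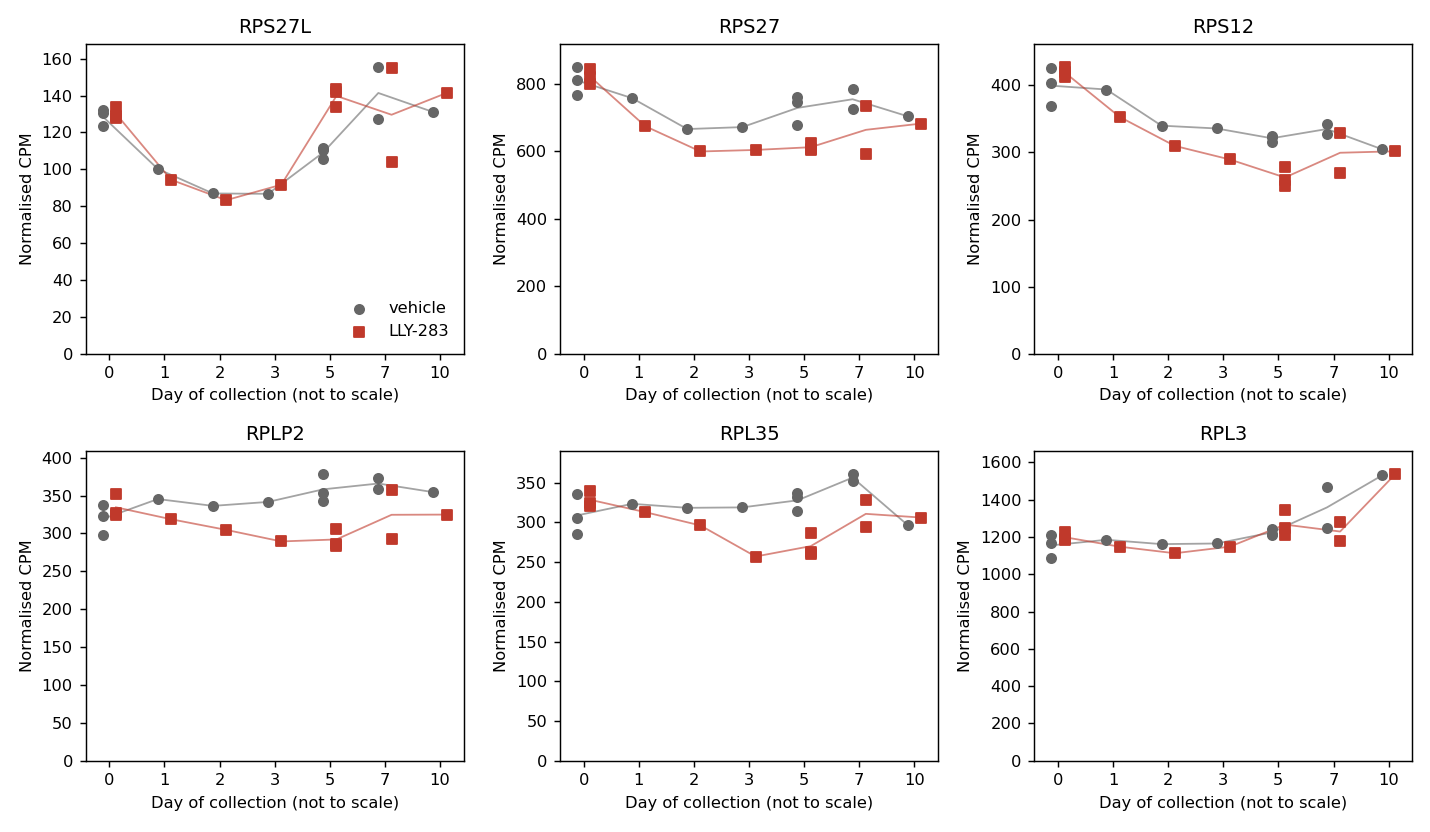
Normalised CPM of 6 members in each of the 24 libraries by day, with grey circles for vehicle, red squares for LLY-283 and lines through the group means; the vertical axes start at 0. RPS27L dips at days 1 to 3 in both arms and separates at day 5, whereas RPS27, RPS12, RPLP2 and RPL35 run lower in LLY-283 from day 1 to day 5 and RPL3 does not separate at day 5.

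The remaining paralogs and fixed members changed less. RPL39L, a testis-enriched copy of RPL39 that lines the exit tunnel, measured 20.5, 18.4 and 19.9 CPM in vehicle and 17.8, 16.7 and 18.6 CPM in LLY-283, which overlapped, with a log2 fold change of -0.12 ± 0.08 (edgeR adjusted p = 0.253). RPL39 had a value of -0.05 and RPL3 one of 0.07, and neither passed. RPL10, which completes the 60S subunit in the cytoplasm, lay just outside the threshold at -0.12 (edgeR adjusted p = 0.0106), as did RPS10, a known substrate of PRMT5, at -0.11 (edgeR adjusted p = 0.014). Readthrough transcripts overlap RPS10, and their counts came to 7.8% of its own.

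Of RPL5, RPL11, RPL23 and RPS7, the members listed here for binding MDM2, none passed. RPL11 had a log2 fold change of -0.10 ± 0.04 (edgeR adjusted p = 0.0408), RPL5 one of -0.03 ± 0.04, RPL23 one of -0.07 ± 0.04 and RPS7 one of -0.07 ± 0.04. The stalk genes differed among themselves. RPLP0, the base of the stalk, measured 1757, 1749 and 1728 CPM in vehicle and 1801, 1645 and 1626 CPM in LLY-283, which overlapped (log2 fold change -0.02 ± 0.04), whereas its acidic partners RPLP1 (-0.15 ± 0.04, edgeR adjusted p = 0.00174) and RPLP2 were lower. RPSA, the laminin receptor and 40S protein, was lower by a similar amount to RPLP1 (-0.15 ± 0.04, edgeR adjusted p = 0.00247). With a library left out, RPSA kept its call in 2 of 6 fits, RPLP1 in 4 and RPLP2 in 6. RPS6, the substrate of S6 kinase, had a value of 0.04 ± 0.04 and did not pass. The sign of RPL5, RPLP0 and RPS6 changed under at least 1 alternative.

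At day 0 no member differed between the arms. None of 80 tested members passed, and none reached an unadjusted p under 0.05 in edgeR, where 0.0169% of all 17780 genes passed and 5.69% reached that p. DESeq2 also called none. The median member was 0.04 higher in the LLY-283 libraries with 4 of 80 values below 0 (49.8% of all genes), and this common shift was no larger than that between repeats of an arm. The median member differed by 0.06 to 0.17 (log2 CPM) between pairs of vehicle day 0 libraries and by 0.01 to 0.07 between pairs of LLY-283 day 0 libraries. The 9 pairs of an LLY-283 with a vehicle library at day 0 ran from -0.05 to 0.19, with 2 below 0. At day 5 the same measure differed by 0.006 to 0.05 within vehicle and 0.02 to 0.12 within LLY-283. All 9 pairs of an LLY-283 with a vehicle library were negative there, from -0.18 to -0.02, a size that the day 0 pairs also reached.

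**Figure D3:**
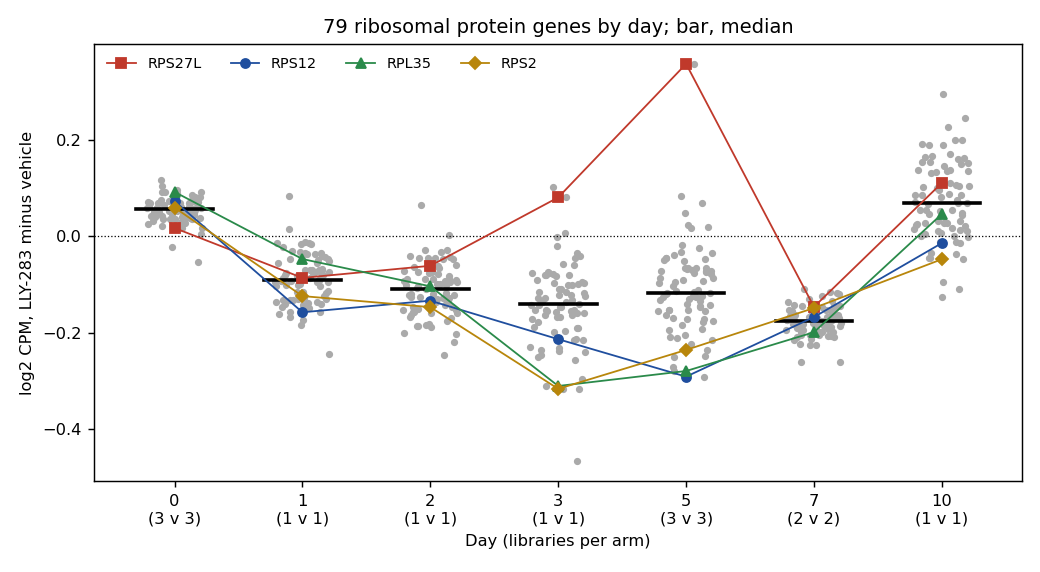
Difference in log2 CPM between the mean of the LLY-283 and the mean of the vehicle libraries on each day for 79 members (grey points, RPL3L and RPL10L left out), with the median as a black bar and 4 genes traced by coloured lines; days 1, 2, 3 and 10 rest on 1 library a side. With the libraries as labelled, the medians lie below 0 from day 1 to day 7 and above 0 at days 0 and 10, and RPS27L lies above every other member drawn at day 5.

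On the days with a single library a side there is no replicate check and no test. The median member was lower in LLY-283 by 0.09 at day 1, by 0.11 at day 2 and by 0.14 at day 3 (log2 CPM, -0.09, -0.11 and -0.14), with 77, 78 and 77 of 80 members below 0. Of all 20876 genes, 10764, 10703 and 10614 were below 0 on these days. The differences of the median member were within the 0.17 that separated vehicle libraries at day 0. RPS2 lies at the mRNA entry channel and is a substrate of the related enzyme PRMT3. Like most members, it was lower in LLY-283 on each of these days, with differences of -0.12, -0.15 and -0.32. At day 10 the median turned to 0.07 and 13 of 80 members lay below 0 (10440 of all 20876 genes), among them RPLP2 at -0.13. RPL3 stood at 1530 CPM in vehicle and 1537 CPM in LLY-283 at day 10, above the 1086 to 1470 CPM of the other 22 libraries.

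At day 7, with 2 libraries a side, no member of 80 passed, as no gene of 16826 did (0%), and 2 members reached an unadjusted p under 0.05 in edgeR, which 1.4% of all genes did. DESeq2 called no member. The median member was at -0.17 and 79 of 80 were negative (51.7% of all genes), and the libraries labelled LLY-283 lay below those labelled vehicle for 54 members, where 13.2% of all genes did so. The median of the members was -0.17 in the repeat 1 pair alone and -0.18 in the repeat 2 pair, although the labels of the latter are in doubt. With those labels exchanged the repeat 2 median would be 0.18, opposite to repeat 1, so the median over both pairs and the counts of 79 and 54 rest on them. RPS27L took opposite signs in these pairs, 0.28 in repeat 1 and -0.58 in repeat 2. For the test of treatment by day that follows, the share of all genes was counted in the main fit alone. Over days 0 to 7 the test of treatment by day passed for none of 80 members (0.0289% of all 20756 genes, and 11 members at an unadjusted p under 0.05, where 15.3% of all genes were), against 7 members without the repeat 2 libraries of day 7, 1 without LLY-283 day 7 repeat 1 and 1 with DESeq2.

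The summed share of the library taken by the 81 genes overlapped between the arms at days 0 and 5. At day 5 it was 4.37% ± 0.05 in vehicle and 4.20% ± 0.12 in LLY-283 (SD, n = 3 each; exact two-sided permutation test, p = 0.2, where 0.1 is the smallest p that 3 against 3 allows). At day 0 it was 4.46% ± 0.19 and 4.56% ± 0.10 (exact permutation p = 0.4). The single libraries of days 1, 2 and 3 were lower in LLY-283, at 4.26%, 4.13% and 4.05% against 4.43%, 4.38% and 4.27%, and that of day 10 was higher, at 4.77% against 4.61%. At day 7 the libraries labelled LLY-283 stood at 4.21% (repeat 1) and 4.47% (repeat 2) and those labelled vehicle at 4.53% and 5.02%, without overlap as labelled, but they would overlap with the labels of repeat 2 exchanged. Within the LLY-283 arm it was 0.35 percentage points lower at day 5 than at day 0, without overlap (exact permutation p = 0.1), and within vehicle 0.09 points lower (exact permutation p = 0.6).

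The share of member counts in 60S genes separated the arms at day 5. This share is weighted by counts, so abundant members weigh most. The most abundant, RPS2 of the 40S subunit, had a log2 fold change of -0.21 at day 5. The median fold changes of the subunits were close, at -0.10 for 40S and -0.08 for 60S. The part of single genes in the share was not tested. Genes of the 60S subunit made up 57.6% to 57.7% of the counts of the 81 genes in all 6 day 0 libraries. At day 5 they made up 58.0% to 58.1% in vehicle and 58.6% to 58.8% in LLY-283, a difference of 0.635 percentage points with no overlap (exact two-sided permutation p = 0.1, the smallest possible). The share was also higher in LLY-283 in the single libraries of days 1, 2 and 3, at 57.9%, 58.1% and 58.6% against 57.5%, 58.0% and 58.0%. At day 7 it was 58.3% in both libraries labelled LLY-283 and 58.0% and 58.1% in those labelled vehicle, an order that the repeat 2 pair would turn with its labels exchanged. It reached 58.95% in vehicle and 59.05% in LLY-283 at day 10. Over the 8 tests made on these shares the smallest adjusted p was 0.2.

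**Figure D4:**
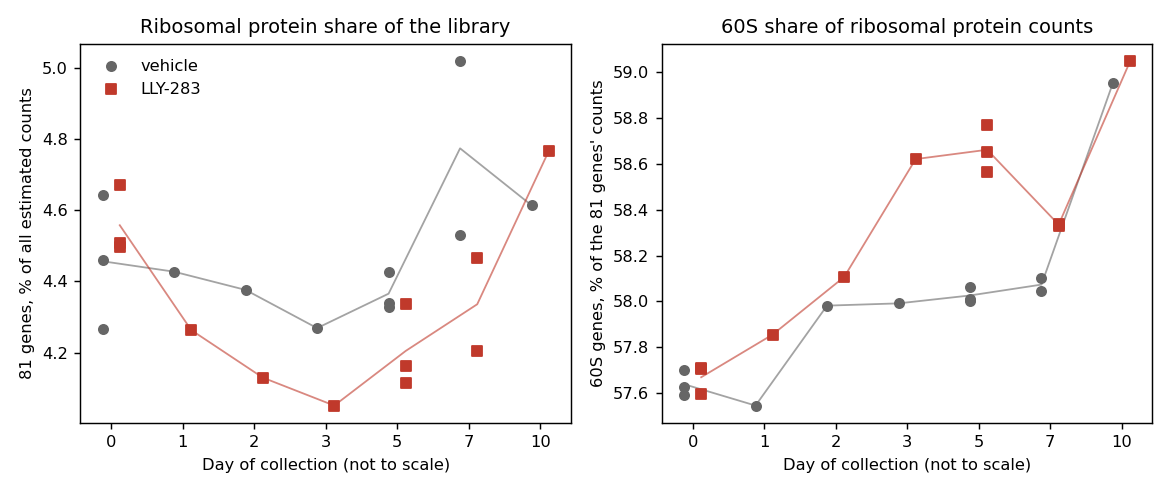
Left, the 81 genes as a percentage of all estimated counts in each library; right, the 60S genes as a percentage of the counts of the 81 genes, by day, with grey circles for vehicle, red squares for LLY-283 and lines through the group means (vertical axes do not start at 0). The library share overlaps at day 0 and spreads widely at day 7, whereas the 60S share is alike at day 0 and lies 0.635 percentage points higher in LLY-283 at day 5.

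Between day 0 and day 5 some members also moved in untreated cells, in both directions. In the main fit the share called was below that of all genes in each direction, at 15% higher and 6.25% lower. In vehicle, 12 of 80 members were higher at day 5 (22.1% of all 18369 genes) and 5 were lower (15.4% of all genes), with a median of 0.03. This split rested on the scaling, since 5 were higher and 19 lower when libraries were scaled by their total alone, with a median of -0.04, and on vehicle day 0 repeat 1, without which 4 were higher and 10 lower. At least 10 counts in every library gave 7 higher and 9 lower, and the shared fit of 22 libraries gave 3 and 2. Without vehicle day 0 repeat 2 or vehicle day 5 repeat 1, 5 were higher, and without LLY-283 day 0 repeat 2, whose spread enters the same fit, 7 were. Leaving out vehicle day 0 repeat 3, vehicle day 5 repeat 2 or vehicle day 5 repeat 3 left 3 lower. The share of all genes called was not counted in these other fits. The largest increases were those of RPS21 (0.30 ± 0.05, edgeR adjusted p = 3.96e-05), RPL21 (0.25 ± 0.05), RPL12, which lies at the base of the stalk (0.20 ± 0.04), RPS29 (0.19 ± 0.05) and RPS15A (0.18 ± 0.04). The decreases were those of RPS12 (-0.32 ± 0.04, edgeR adjusted p = 2.08e-07), RPL36A (-0.25 ± 0.05), RPS27L (-0.24 ± 0.04), RPS27 (-0.16 ± 0.04) and RPL23 (-0.12 ± 0.04).

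In the LLY-283 arm, 3 members were higher at day 5 than at day 0 (22.6% of all genes) and 26 were lower (16.9%), with a median of -0.08. RPS12 had the largest decrease, from 428, 412 and 420 CPM at day 0 to 279, 250 and 259 CPM at day 5, a log2 fold change of -0.64 ± 0.04 (edgeR adjusted p = 1.93e-13). RPS26 (-0.41 ± 0.06) and RPS27 (-0.39 ± 0.04) followed. The members that rose were RPL22 (0.15), RPS27L (0.14) and RPL12 (0.13). Reads of RPL22 may be shared with pseudogenes, whose counts came to 22.9% of those of parent and pseudogenes together. The 26 lower members became 40 with DESeq2, 46 with library size alone, 46 with at least 10 counts in every library and 14 in the shared fit of 22 libraries, and the 3 higher ones became 0 with DESeq2, its size factors, no filter, at least 10 counts or the shared fit. The 26 became 12 without repeat 1 of LLY-283 at day 0, 14 without repeat 2 or 3 of LLY-283 at day 5, and 43 without repeat 1 of vehicle at day 0. The 3 became 5 without repeat 3 and 1 without repeat 2 of LLY-283 at day 5. They became 0 without repeat 2 or 3 of LLY-283 at day 0, repeat 1 of LLY-283 at day 5, or repeat 1 or 2 of vehicle at day 0. The share of all genes called was not counted in these other fits.

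The change from day 0 to day 5 was then compared between the arms in 1 test. It was more negative in LLY-283 for 12 of 80 members (8.15% of all 18369 genes) and more positive for 1 (6.78% of all genes), and the median difference was -0.12, against 0.04 for all genes. RPS27L was the 1 called more positive, at 0.38 ± 0.05 (edgeR adjusted p = 5.81e-06). Its level at day 5 was below that of day 0 in vehicle and above it in LLY-283. RPL3L, under 1 CPM, had a larger difference of 1.13 and did not pass (edgeR adjusted p = 0.251). Among the lower members, RPLP2, RPS2 and RPL8 had positive values in vehicle (0.16, 0.12 and 0.13) and negative ones in LLY-283 (-0.16, -0.13 and -0.12). Directions within an arm depend on the scaling. The median of the members in vehicle was 0.03 in the main fit and -0.035 with library size alone. The members called higher in LLY-283, RPS27L among them, became 0 in some alternative fits. RPS12 fell in both arms, by -0.32 in vehicle and -0.64 in LLY-283. RPL35 passed in LLY-283 (-0.25) and not in vehicle (0.08). In the fit in which 22 libraries shared an estimate of the spread, the day 7 repeats among them, 0 members were lower and 0 higher. RPS27L had 0.34 there at an adjusted p of 0.195 (edgeR). DESeq2 gave 28 lower, and a filter of at least 10 counts in every library gave 19. The 12 became 27 without repeat 3 of vehicle at day 0 or repeat 1 of LLY-283 at day 5, and 7 without repeat 1 of LLY-283 at day 0 or repeat 2 or 3 of LLY-283 at day 5. The share of all genes called was not counted in these other fits.

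**Figure D5:**
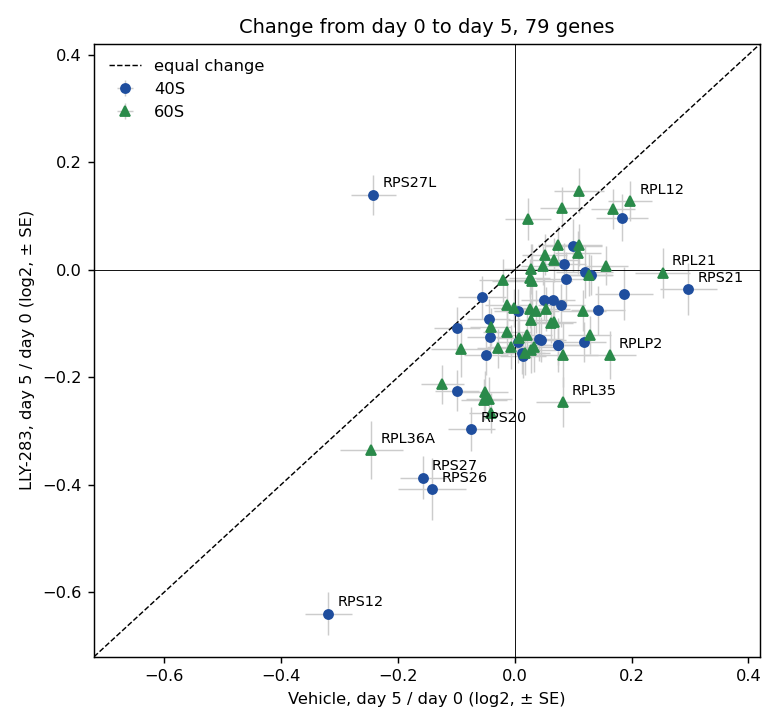
Log2 fold change from day 0 to day 5 in vehicle (horizontal) and LLY-283 (vertical) for 79 members, each with its standard error (3 libraries a group), with circles for 40S genes, triangles for 60S genes and a dashed line where both arms change equally; RPL3L, under 1 CPM, is not drawn. Most points lie below the dashed line, RPS12 lies lowest at -0.32 and -0.64, and RPS27L lies above it at -0.24 and 0.14.

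Other gene groups tied to ribosomes were read at day 5 in the same test. Of all 16491 genes, 14.1% were lower and 12% higher there, with a median of 0.02. Of 10 chaperones and importers of ribosomal proteins, 8 were lower and none higher, with a median of -0.30. They included the importers IPO5 (-0.34 ± 0.04) and TNPO1 (-0.33 ± 0.04) and the RPL23 chaperone BCCIP (-0.31 ± 0.04). Of 78 mitochondrial ribosomal proteins, 29 were lower, among them MRPL12 (-0.37 ± 0.04) and MRPL13 (-0.33 ± 0.05), and 1 was higher, MRPS6 (0.46 ± 0.05), with a median of -0.14. The medians of both lists lay below the -0.09 of the cytosolic members, a difference that was not tested.

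Of 30 other mRNAs listed here as TOP mRNAs, mostly translation factors, 9 were lower and 3 higher, with a median of -0.06. Start sites were found for 21 of the 30. A tract stood exactly at a start in 17 of these and within 10 bases in 18. Of all genes, 14.1% were lower and 12% higher. In this list the 3 with the smallest p were IPO5, the initiation factor subunit EIF3K (-0.31 ± 0.04) and the nucleolar chaperone NPM1 (-0.27 ± 0.04). IPO5 is counted here and among the importers. Of 15 tested genes of the mTORC1 and LARP1 pathway, 4 were lower and 2 higher, with a median of -0.01. They included the translation repressors EIF4EBP1 (-0.40 ± 0.05) and EIF4EBP2 (-0.27 ± 0.04), and TSC1, a brake on mTORC1 (0.37 ± 0.05). Of 7 ribosomal proteins outside the naming rule, 5 were lower and 1 higher. FAU (-0.14 ± 0.04), which encodes the 40S protein eS30, and RPL22L1, a paralog of RPL22 (-0.23 ± 0.04), were among the lower. With a library left out, FAU kept its call in 2 of 6 fits and RPL22L1 in 6. RACK1, a 40S scaffold, was the higher one (0.12 ± 0.04, edgeR adjusted p = 0.00815), and did not pass without 5 of the 6 libraries in turn.

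Members called lower and members not called at day 5 held the tract in similar shares, a comparison made without a test. A tract stood exactly at an annotated start in 16 of the 23 lower members with a start site (69.6%) and in 30 of the 40 others that were not called (75%). Coding length moved weakly with the fold change. The median log2 fold change at day 5 was -0.13 in the 20 members with the shortest coding sequences (75 to 357 bases) and -0.05 in the 20 with the longest (612 to 1281 bases), with a Spearman rho of 0.211 over 79 members. All coding genes showed a gradient of the same sign, from -0.04 at up to 300 bases and -0.07 at 402 to 498 bases to 0.05 above 3000 bases. From day 0 to day 5 the rho of the members was 0.251 within vehicle and 0.253 within LLY-283. The part of length in the fold changes of the members was not tested. The mitochondrial transcript share also differed at day 5, at 2.73% to 3.07% in vehicle and 3.21% to 3.88% in LLY-283, and its part was not tested.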

How the data were processed

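Per the labels and the study's methods, poly(A) RNA was made into strand-specific libraries and quantified with kallisto on hg38 (versions not given in the sources used here). The authors deposited whole-number estimated counts per gene for 24 libraries, of which 13835205 to 23190369 were assigned per library. Of 58676 identifiers, 58207 matched GENCODE. Tests used edgeR 4.0.16 under R 4.3.3 (TMM scaling, filterByExpr, robust quasi-likelihood test, Benjamini-Hochberg adjustment over all genes tested, threshold 0.01), within day 0, 5 or 7, over the 12 libraries of days 0 and 5, and over the 22 of days 0 to 7. Scripts were tested on simulated counts. CPM used TMM over 24 libraries, and log2 CPM a prior count of 2. DESeq2 1.42.0, other scalings and filters, added pseudogene counts and left-out libraries were alternatives. Repeats differed by more than counting noise (chi-square per degree of freedom 1.65 to 13.4), so none was a duplicate. Members other than RPL3L and RPL10L had at least 8559 counts in all. Members and lists were chosen with earlier results of these data known. Genes named with values had the largest changes or smallest p in these comparisons, or a fixed role. RPL15, RPL22, RPL41, the members listed by name alone and the single-day values were chosen after their values were seen. Some genes are not reported here by name.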

Additional observations from a re-analysis of the deposited data

Results flagged for a closer look

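For 13 of 80 members, the change from day 0 to day 5 differed between the vehicle and LLY-283 arms. The test was edgeR's treatment by day over 12 libraries. In either direction, 2742 of all 18369 genes passed, a share similar to that of the members. The change was more negative in LLY-283 for 12 (8.15% of all 18369 genes) and more positive for 1 (6.78% of all genes). The 6 with the smallest p were RPS27L at 0.38 ± 0.05 (log2, SE), RPS12 at -0.32 ± 0.06, RPL8 at -0.25 ± 0.05, RPS2 at -0.25 ± 0.05, RPLP2 at -0.32 ± 0.06 and RPL35 at -0.33 ± 0.07. When 22 libraries shared an estimate of the spread, the day 7 repeats among them, 0 members were lower and 0 higher. RPS27L had 0.34 there at an adjusted p of 0.195 (edgeR), whereas DESeq2 gave 28 lower members. Each arm had 3 libraries at each of these days. No group had the 4 libraries needed to look for a library far from the others of its group.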

How the results depend on the processing

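Members above 1 CPM had at least 8559 counts in all, so the number of libraries limits these results more than depth. Values of days 1, 2, 3 and 10 have no replicate, and the labels of the day 7 repeat 2 libraries are in doubt. At day 5, the shared fit of 22 libraries, the day 7 repeats among them, left 6 members lower and 0 higher. Library size alone and the replicate block each gave 2 higher. Leaving out each day 5 library in turn gave 13 to 43 lower. Over days 0 to 7 the call count was 1 with DESeq2, 4 without a filter and 7 without the day 7 repeat 2 libraries, and 0 to 1 with a library left out. In vehicle from day 0 to day 5, library size alone gave 19 lower and 5 higher (median -0.035), at least 10 counts in every library gave 9 and 7 (median -0.0079), and the shared fit gave 2 and 3; leaving out a library gave 3 to 10 lower, 4 to 18 higher and medians of -0.0162 to 0.0781. In LLY-283 over the same days, 40 were lower with DESeq2, 46 with library size alone, 46 with at least 10 counts and 14 in the shared fit, and 12 to 43 with a library left out. None was higher (0) with DESeq2, DESeq2 size factors, no filter, at least 10 counts or the shared fit, and 0 to 5 were with a library left out. For the difference between the arms, 28 were lower with DESeq2, 19 with at least 10 counts and 0 in the shared fit, which also had 0 higher, and 7 to 27 were lower with a library left out. The share of all genes called was not counted under these alternatives, so a change in the members cannot be told from a change in all genes. The cause of these moves was not tested. RPL5 turned to 0.0027 with library size alone and 0.0013 without LLY-283 day 5 repeat 3 (range -0.0777 to 0.0013 with a library left out), RPLP0 to 0.0069 with library size alone, and RPS6 to -0.007 without LLY-283 day 5 repeat 1 (range -0.007 to 0.0658). Of 876 alternatives for named genes, 795 kept direction and side of the threshold. Repeat numbers did not pair the samples (correlations of same-numbered deviations -0.0502 to 0.00592), and the block by number gave 32 lower members at day 5 against 28. Day 7 without both repeat 2 libraries allows no test.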
